A study of Mus musculus with 15 samples.

Results

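Endogenous retroviruses of class II, the group that holds the intracisternal A particles (IAP), the early transposons (ETn) and their relatives, were followed in RNA-seq libraries of mouse embryonic stem cells (ESCs) depleted of TET1 or TET2. A repeat class counted as a member if its RepeatMasker name began with IAP, ETn, MMETn, MMERVK, MYSERV or RLTRETN. This name rule, which used no expression value, found 25 of the 1217 repeat classes in the table. Internal parts, which lie between the long terminal repeats (LTRs) of an element, made up 14 members, and LTRs made up 11. By name they fell into the ETn family with 5 members, the IAP family with 7, IAPEY with 5, IAPLTR3 and IAPLTR4 with 4, MYSERV with 3, and MMERVK10C with its internal part alone. All 25 passed the filter on low values, beside 1187 classes in all, and the lowest value of a member in any library was 49.3 normalised reads.

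The cells were E14, an ESC line of 129/Ola background, grown in serum with LIF and without feeder cells. The 3 groups of 5 libraries each carried a lentiviral short hairpin RNA (shRNA) that targets no gene (shScr), Tet1 (shTet1) or Tet2 (shTet2), and all cells had been under puromycin for 3 days. Each target was hit by a single hairpin in a single cell line, so an effect of the hairpin sequence and an effect of the lost enzyme cannot be told apart. Nothing in the labels says that libraries with different replicate numbers came from separate transductions, and p-values measure the spread between libraries. Tet1 stood at 27.8% of shScr in shTet1 and Tet2 at 26.6% of shScr in shTet2 by mean normalised reads.

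Class II retroviruses are built from a pair of LTRs, which hold the promoter and the polyadenylation signal, around an internal part. In IAP elements the internal part encodes Gag and Pol proteins, and particles form inside the cell. ETn elements carry no retroviral genes of their own and borrow proteins from the related MusD elements, which RepeatMasker lists as ETnERV. In ESCs both kinds are known targets of KRAB zinc finger proteins, which bring in the co-repressor TRIM28 and the histone methyltransferase SETDB1, and DNA methylation adds to their silencing. TET enzymes oxidise 5-methylcytosine, the modified base of methylated DNA.

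The study designed 3 primer pairs on IAP elements for RT-qPCR and ChIP, and their sequences show what separates the LTR pairs. They are printed 5′ to 3′ with CpG dinucleotides, the sites of DNA methylation, in capitals.
IAPLTR1 and IAPLTR2 forward: cagccaatcagggagtgac
IAPLTR1 reverse: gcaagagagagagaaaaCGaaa
IAPLTR2 reverse: atcttacaCGCGttctCG
IAP gag forward: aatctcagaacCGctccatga
IAP gag reverse: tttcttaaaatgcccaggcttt
Both LTR pairs share the forward primer, which matched 2923 sites of the mm9 genome without a mismatch on 21 chromosomes searched (19 autosomes, X and Y). The reverse primers therefore set the pairs apart, and they matched 1450 sites for IAPLTR1 and 90 for IAPLTR2. Whether the sites lie in the repeat classes of like name was not checked. No forward site gave a product with both reverse primers.

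Exact products of up to 1000 bases were counted in the mm9 sequence, which is of C57BL/6J mice and not of the 129/Ola background of E14. The IAPLTR1 pair gave 1104 products of 79 to 85 bases with 3 to 5 CpGs each. The IAPLTR2 pair gave 26 products of 178 to 413 bases, and these held 7 to 15 CpGs each. The gag pair gave 436 products of 77 bases, of which 230 had an LTR product of either pair within 8000 bases on the same strand. In the GENCODE vM1 annotation of mm9, 866 of the IAPLTR1 products (78.4%) lay outside genes, 233 (21.1%) in introns and 5 (0.453%) overlapped an exon. For the gag pair, 343 products (78.7%) lay outside genes, 93 (21.3%) in introns and 0 in exons. For IAPLTR2, 24 of 26 products lay outside genes and 2 in introns. The repeat table pools all copies of a class, so that a read of an intron of a host gene and a read of an IAP transcript from its own promoter are not told apart in the values below.

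Libraries held 15258291 to 35432425 reads in genes and 7476759 to 19985961 in repeat classes, of which 366189 to 813190 lay in members. Markers of ESCs (8 genes) took 3553 to 5709 reads per 1000000 gene reads. The summed levels of the marker lists for fibroblast feeders (6 genes, Lum at 0 in all libraries), primitive endoderm (5 genes), trophoblast (4 genes) and neural cells (3 genes) were at 2.96 to 10.4, 4.24 to 27.2, 2.11 to 11.1 and 46.4 to 88.1. A further measure of each library was the summed reads of 1451 chemosensory receptor genes (olfactory and vomeronasal), genes without a known role in ESCs. This receptor share was 54.5 to 64.7 per 1000000 gene reads in 4 libraries, namely shScr replicate 4, shTet1 replicates 3 and 4 and shTet2 replicate 4. It was 11.1 to 26.5 in the other 11. Results that rest on these 4 libraries are given with and without them.

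ETn elements supplied most of the RNA. Over 15 libraries MMETn-int, the internal part of ETn elements, had 4900973 reads, ETnERV2-int 1325591 and ETnERV-int 439076, and their LTR, RLTRETN_Mm, had 787226. Among IAP classes IAPEz-int, the internal part of the common IAP elements, had 370035 reads, while the LTRs IAPLTR1_Mm and IAPLTR2_Mm had 28667 and 28605. MMERVK10C-int had 128945. These are reads per class, not per length or per copy, so they do not rank transcription of single elements. The ETn family took 85.8% to 93.5% of the member reads of each library and the IAP family 3.77% to 7.93%.

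**Figure D1:**
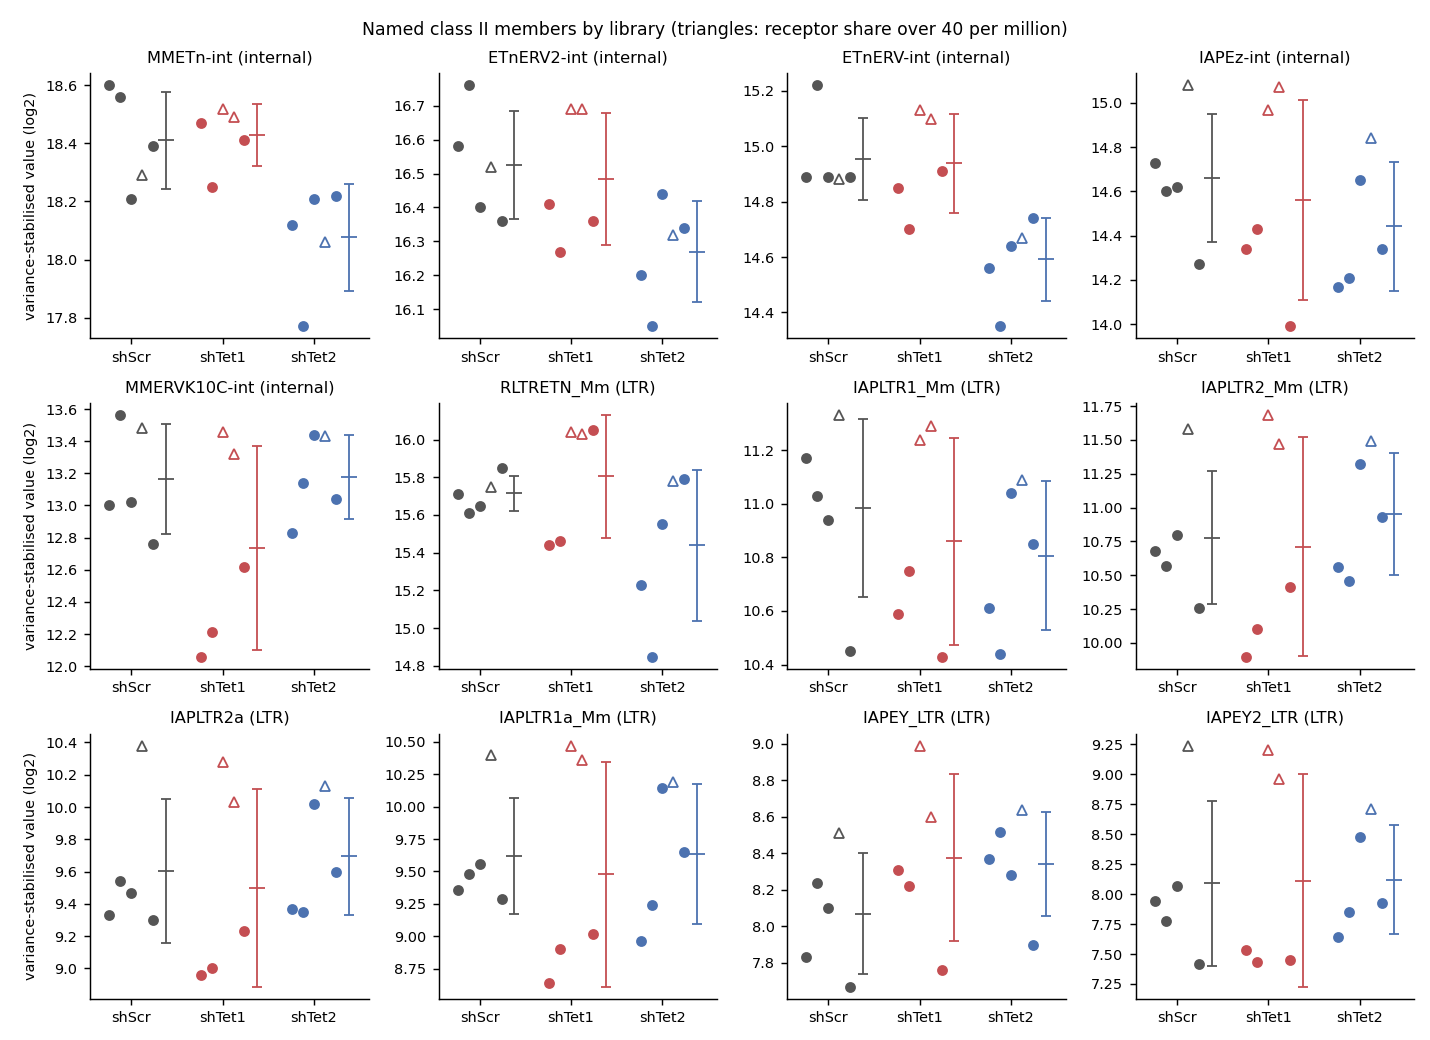
Variance-stabilised values (log2 scale, vertical axis) of the 12 named members in each library, with replicates 1 to 5 from left to right within a group and bars for the mean and SD of 5 libraries. Open triangles, the 4 libraries with over 40 receptor reads per 1000000 gene reads, top their groups for the 4 IAP LTRs but, for MMETn-int, in shTet1 alone.

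The first question was whether any member rises or falls when TET1 or TET2 is lost. On the variance-stabilised scale, on which 1 unit is close to a doubling for well-covered classes, limma was fitted over all 1187 tested classes with Benjamini-Hochberg adjustment. At an adjusted p under 0.05 it called 0 of 25 members in shTet1 against shScr, where 0% of all classes were called. In bulk RNA, fewer cells that express a class and less RNA of it per cell cannot be told apart. The fit called 0 of 25 in shTet2 against shScr, again with 0% of all classes, and 0 of 25 in shTet2 against shTet1, where 0.253% of all classes were called. At an unadjusted p under 0.05 the counts were 0, 2 and 2 members, beside 0.842%, 1.26% and 2.70% of all classes. The members with such a p were MMETn-int and ETnERV-int in both comparisons that involve shTet2, and both were lower in shTet2. Of all classes, 0.421% and 0.505% had an unadjusted p under 0.05 and a lower mean in these comparisons. These member counts rested on single libraries. With shTet2 replicate 2 left out, 0 members had such a p in either comparison. The count was also 0 against shScr without shScr replicate 2, and against shTet1 without shTet1 replicate 4. With any other single library left out it was 1 to 3. Groups that did not overlap were counted as well. Between shTet1 and shScr this held for 0 members, beside 0.0842% of all classes with a lower and 0.0842% with a higher mean. In shTet2 against shScr it held for ETnERV-int, lower, beside 0.253% lower and 0.253% higher. In shTet2 against shTet1 it held for MMETn-int, lower, beside 0.253% lower and 0.927% higher.

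Member means leaned in different directions between comparisons, and those of all classes leaned the same way in each. In shTet1 against shScr, 19 of 25 means were lower, beside 729 of 1187 classes. The median difference was −0.14 for internal parts and −0.10 for LTRs, beside −0.06 over all classes. In shTet2 against shScr, 17 of 25 were higher, beside 721 of 1187 classes, with medians of 0.04 and 0.09, beside 0.04. In shTet2 against shTet1, 17 of 25 were higher, beside 830 of 1187 classes, with medians of 0.21 and 0.16, beside 0.08. Each pair of these comparisons shares the 5 libraries of a group, so their values are set side by side and not compared. Single differences ran from −0.45 to 0.58 over the 3 comparisons, and 95% confidence intervals were 0.61 to 1.88 units wide.

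**Figure D2:**
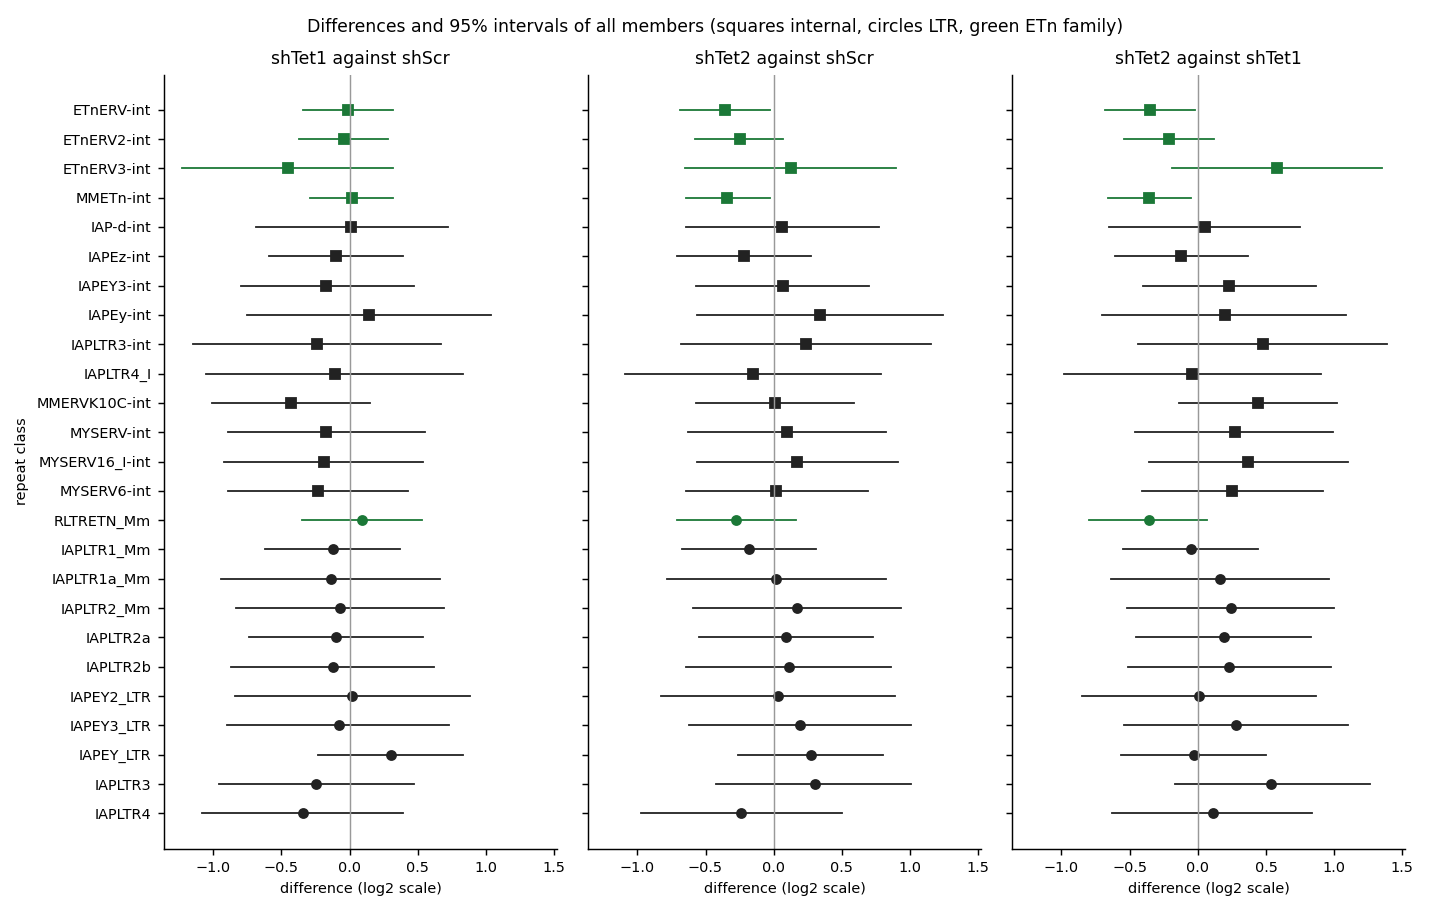
Difference of group means (log2 scale, horizontal axis) with its 95% confidence interval from limma for each of the 25 members, one panel per comparison. Squares are internal parts, circles LTRs, and green marks the ETn family. Most intervals include 0, and those of MMETn-int and ETnERV-int lie below 0 in the panels with shTet2.

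MMETn-int was the member with the most reads. Its values in replicates 1 to 5 of shScr were 18.60, 18.56, 18.21, 18.29 and 18.39. Those of shTet1 were 18.47, 18.25, 18.52, 18.49 and 18.41, and those of shTet2 were 18.12, 17.77, 18.21, 18.06 and 18.22. All shTet2 values lay below all shTet1 values, and the highest of them lay just above the lowest of shScr. Against shTet1 the shTet2 mean was lower by a difference of −0.36 (SE 0.14, interval −0.66 to −0.05), a fold of 0.782, with an exact permutation p of 0.00794, the smallest that 5 against 5 libraries allow, and a limma Benjamini-Hochberg adjusted p of 0.999. Against shScr it was −0.34 (SE 0.14, −0.64 to −0.03; exact permutation p = 0.0159; limma adjusted p = 1.000). These permutations did not keep libraries of the same replicate number together. With the replicate number as a block, the intervals were −0.72 to 0.01 against shTet1 and −0.70 to 0.02 against shScr, and both included 0. In normalised reads the group means of MMETn-int were 350929 ± 40719, 353922 ± 25665 and 277769 ± 32742 in shScr, shTet1 and shTet2 (SD, n = 5). The groups of shTet2 and shTet1 did not overlap, which held for a lower mean in 0.253% of all classes. Quantile normalisation gave −0.72 between shTet2 and shTet1, with a call by limma, beside 0.0842% of all classes called lower. Between shTet1 and shScr the difference was 0.02 (SE 0.14, −0.29 to 0.32).

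ETnERV-int and ETnERV2-int are the internal parts of elements of the MusD type, which encode the proteins that ETn lacks. ETnERV-int stood at 14.89, 15.22, 14.89, 14.88 and 14.89 in shScr, at 14.85, 14.70, 15.13, 15.10 and 14.91 in shTet1, while shTet2 had 14.56, 14.35, 14.64, 14.67 and 14.74. All shTet2 values lay below all shScr values, which held for a lower mean in 0.253% of all classes, and the highest shTet2 value exceeded the lowest of shTet1. The difference of shTet2 from shScr was −0.36 (SE 0.16, −0.69 to −0.03; exact permutation p = 0.00794; limma adjusted p = 1.000) and from shTet1 −0.35 (SE 0.16, −0.68 to −0.02; exact permutation p = 0.0159; limma adjusted p = 0.999). That of shTet1 from shScr was −0.01 (−0.34 to 0.32). With the replicate number as a block, the intervals of shTet2 were −0.71 to −0.01 from shScr and −0.70 to 0.00 from shTet1.

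ETnERV2-int had 16.58, 16.76, 16.40, 16.52 and 16.36 in shScr, 16.41, 16.27, 16.69, 16.69 and 16.36 in shTet1, while shTet2 had 16.20, 16.05, 16.44, 16.32 and 16.34. Its groups overlapped in every comparison, and 1 shTet2 value (16.44) lay within the shScr range. The difference of shTet2 was −0.25 from shScr (SE 0.15, −0.58 to 0.07; exact permutation p = 0.0317; limma adjusted p = 1.000) and −0.21 from shTet1 (−0.54 to 0.12). ETnERV3-int, the least covered internal part of the family, did not follow them, with differences of 0.13 from shScr (−0.65 to 0.90) and 0.58 from shTet1 (−0.19 to 1.35).

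RLTRETN_Mm is the LTR of ETn and MusD elements and one of the 4 members that the study lists as TET1 targets from published ChIP-seq. In shScr it had 15.71, 15.61, 15.65, 15.75 and 15.85, in shTet1 15.44, 15.46, 16.04, 16.03 and 16.05, and in shTet2 15.23, 14.85, 15.55, 15.78 and 15.79. The shScr libraries lay close together, while those of shTet1 and shTet2 spread widely, replicates 1 and 2 being the lowest of each, and the groups overlapped. The differences were 0.09 in shTet1 (−0.35 to 0.53) and −0.28 in shTet2 (−0.71 to 0.16) from shScr, and −0.36 between shTet2 and shTet1 (−0.80 to 0.07; exact permutation p = 0.167).

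IAPEz-int, which holds the gag gene of IAP elements, was taken here as the class nearest to the gag pair printed above. It had 14.73, 14.60, 14.62, 15.08 and 14.27 in shScr, 14.34, 14.43, 14.97, 15.07 and 13.99 in shTet1, while shTet2 had 14.17, 14.21, 14.65, 14.84 and 14.34. The highest library of shScr and the 2 highest of shTet1 were those of high receptor share, as was the highest of shTet2, and the groups overlapped. The differences were −0.10 in shTet1 (SE 0.23, −0.59 to 0.39; exact permutation p = 0.690) and −0.22 in shTet2 (SE 0.23, −0.71 to 0.27; exact permutation p = 0.294) from shScr. Between shTet2 and shTet1 it was −0.12 (−0.61 to 0.37).

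The LTRs of the same elements gave no clearer separation. IAPLTR1_Mm had 11.17, 11.03, 10.94, 11.33 and 10.45 in shScr, 10.59, 10.75, 11.24, 11.29 and 10.43 in shTet1, while shTet2 had 10.61, 10.44, 11.04, 11.09 and 10.85. Its differences from shScr were −0.12 in shTet1 (−0.62 to 0.37; exact permutation p = 0.571) and −0.18 in shTet2 (−0.67 to 0.31; exact permutation p = 0.389). IAPLTR2_Mm had 10.68, 10.57, 10.80, 11.58 and 10.26 in shScr, 9.90, 10.10, 11.68, 11.47 and 10.41 in shTet1, while shTet2 had 10.56, 10.46, 11.32, 11.49 and 10.93. Its differences were −0.07 in shTet1 (−0.83 to 0.69; exact permutation p = 0.889) and 0.17 in shTet2 (−0.59 to 0.93; exact permutation p = 0.587). Within shTet1 the IAPLTR2_Mm libraries fell into 3 at 9.90 to 10.41 and 2 at 11.47 and 11.68, and these 2 were the shTet1 libraries of high receptor share. Without the 4 libraries of high receptor share, the differences of shTet1 from shScr were −0.31 for IAPLTR1_Mm and −0.44 for IAPLTR2_Mm (limma adjusted p = 0.516 and 0.499). The median over all classes was then −0.28. In shTet2 the differences were −0.16 and 0.24.

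IAPLTR1a_Mm and IAPLTR2a, variants of these LTRs, repeated that layout. IAPLTR1a_Mm had 9.36, 9.48, 9.56, 10.40 and 9.29 in shScr, 8.64, 8.90, 10.47, 10.36 and 9.02 in shTet1, while shTet2 had 8.96, 9.24, 10.14, 10.19 and 9.65. IAPLTR2a had 9.33, 9.54, 9.47, 10.38 and 9.30 in shScr, 8.96, 9.0, 10.28, 10.03 and 9.23 in shTet1, while shTet2 had 9.37, 9.35, 10.02, 10.13 and 9.60. Replicate 4 of shScr stood apart from the other shScr libraries in both. The differences from shScr were −0.14 and −0.10 in shTet1 and 0.02 and 0.09 in shTet2, each within an interval that included 0 (IAPLTR1a_Mm −0.94 to 0.66 and −0.78 to 0.82, IAPLTR2a −0.74 to 0.54 and −0.55 to 0.73). Without the 4 libraries of high receptor share they were −0.57 and −0.34 in shTet1 (limma adjusted p = 0.499 for both). In shTet2 they were then 0.08 and 0.18.

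Of the 4 listed TET1 targets, MMERVK10C-int, the internal part of a class II element with its own gag and pol genes, had the largest difference on TET1 depletion. It had 13.00, 13.56, 13.02, 13.48 and 12.76 in shScr, 12.06, 12.21, 13.46, 13.32 and 12.62 in shTet1, while shTet2 had 12.83, 13.14, 13.44, 13.43 and 13.04. In shTet1, replicates 1, 2 and 5 lay below all shScr libraries, and replicates 3 and 4, those of high receptor share, lay within the shScr range. The difference of shTet1 from shScr was −0.43 (SE 0.28, −1.01 to 0.15; exact permutation p = 0.222; limma adjusted p = 1.000), and without the 4 libraries of high receptor share it was −0.79 (limma adjusted p = 0.499). Weights for library quality in the fit gave −0.83 and a call, beside 1.85% of all classes called lower. In shTet2 it was 0.01 (−0.57 to 0.59) from shScr and 0.44 (−0.14 to 1.02) from shTet1.

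IAPEY_LTR and IAPEY2_LTR complete that list. IAPEY_LTR had 7.83, 8.24, 8.10, 8.51 and 7.67 in shScr, 8.31, 8.22, 8.99, 8.60 and 7.76 in shTet1, while shTet2 had 8.37, 8.52, 8.28, 8.64 and 7.90. Its mean was higher in both knockdowns, by 0.30 in shTet1 (−0.23 to 0.83; exact permutation p = 0.230) and by 0.27 in shTet2 (−0.26 to 0.80; exact permutation p = 0.198), and the groups overlapped. IAPEY2_LTR had 7.94, 7.78, 8.07, 9.24 and 7.42 in shScr, 7.53, 7.43, 9.20, 8.96 and 7.45 in shTet1, while shTet2 had 7.64, 7.85, 8.48, 8.71 and 7.93, with differences of 0.02 (−0.84 to 0.88) and 0.03 (−0.83 to 0.89) from shScr.

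Among the 13 members not shown by library, differences from shScr ran from −0.45 for ETnERV3-int to 0.14 for IAPEy-int in shTet1, and from −0.24 for IAPLTR4 to 0.34 for IAPEy-int in shTet2. The MYSERV internal parts were at −0.17, −0.19 and −0.23 in shTet1 for MYSERV-int, MYSERV16_I-int and MYSERV6-int, and at 0.10, 0.17 and 0.02 in shTet2. IAPLTR3 and IAPLTR3-int, an LTR with its internal part, were −0.25 and −0.24 in shTet1 and 0.30 and 0.24 in shTet2. Between shTet2 and shTet1 they differed by 0.54 (−0.17 to 1.26; exact permutation p = 0.103) and 0.48 (−0.44 to 1.39; exact permutation p = 0.381). For comparison, MERVL-int, the internal part of another retrovirus family, differed by 2.15 (1.35 to 2.96; limma adjusted p = 0.0145) between shTet2 and shTet1, and L1Md_T, a young LINE-1 class, by 0.26 (−0.31 to 0.83).

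The deposited values are scaled by gene reads, and the reads in repeats per gene read varied with the library. The composition of the repeat reads, which does not depend on that scaling, was therefore examined too. Internal members made up 64.2, 57.3, 52.4, 41.6 and 66.8 of 1000 repeat reads in shScr, 80.8, 58.6, 48.8, 52.1 and 55.4 in shTet1, while shTet2 had 47.8, 44.1, 35.9, 35.4 and 43.2. The group means were 56.4 ± 10.1, 59.1 ± 12.7 and 41.3 ± 5.40 (SD, n = 5). All shTet2 libraries lay below all shTet1 libraries. They also lay below 4 of the 5 shScr libraries, and shScr replicate 4, at 41.6, fell among them. A sum over members chosen by name carries no test here.

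LTR members made up 6.73, 5.54, 6.47, 5.33 and 8.63 of 1000 repeat reads in shScr, 7.70, 6.45, 6.56, 6.97 and 8.12 in shTet1, while shTet2 had 4.97, 4.39, 4.30, 5.27 and 5.91. Again the shTet2 libraries lay below those of shTet1 without overlap. Most of these reads were of RLTRETN_Mm, with a mean of 4.26 of 4.97 in shTet2 and 6.38 of 7.16 in shTet1. The LTRs of the IAP family overlapped, at 0.518 to 0.651 in shTet2 and 0.480 to 0.770 in shTet1. The shTet2 mean was 0.731 times that of shScr for internal parts and 0.760 times for LTRs, and 0.698 and 0.694 times that of shTet1. Per 1000 gene reads the ratios to shTet1 were 0.824 and 0.812, and the groups overlapped (internal 15.9 to 21.4 in shTet2, 20.3 to 26.3 in shTet1). In shTet1 the shares were 1.05 and 1.09 times those of shScr.

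In reads, the difference in composition lay mostly in the ETn family. That family held 85.8% to 93.5% of the member reads, so summed member reads mostly follow it. Its means were 57.0, 60.5 and 41.0 of 1000 repeat reads in shScr, shTet1 and shTet2. Those of the IAP family were 3.51, 3.54 and 2.85, also lowest in shTet2, and those of all members outside the ETn family 6.03, 5.77 and 5.20. ETn members made up 35 to 47.9 of 1000 repeat reads in shTet2, 49.0 to 82.4 in shTet1 and 40.3 to 69.9 in shScr. Members outside the ETn family made up 4.74 to 5.69 in shTet2, 4.15 to 6.89 in shTet1 and 5.58 to 6.64 in shScr, and IAP family members 2.61 to 3.16, 2.39 to 4.10 and 3.11 to 3.79. The number of internal reads per LTR read had ranges that overlapped between all groups. For ETn it was 8.98 ± 1.28, 8.49 ± 1.57 and 8.77 ± 1.64 in shScr, shTet1 and shTet2, and for IAP 4.67 ± 0.367, 4.77 ± 1.03 and 4.01 ± 0.395 (SD, n = 5).

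**Figure D3:**
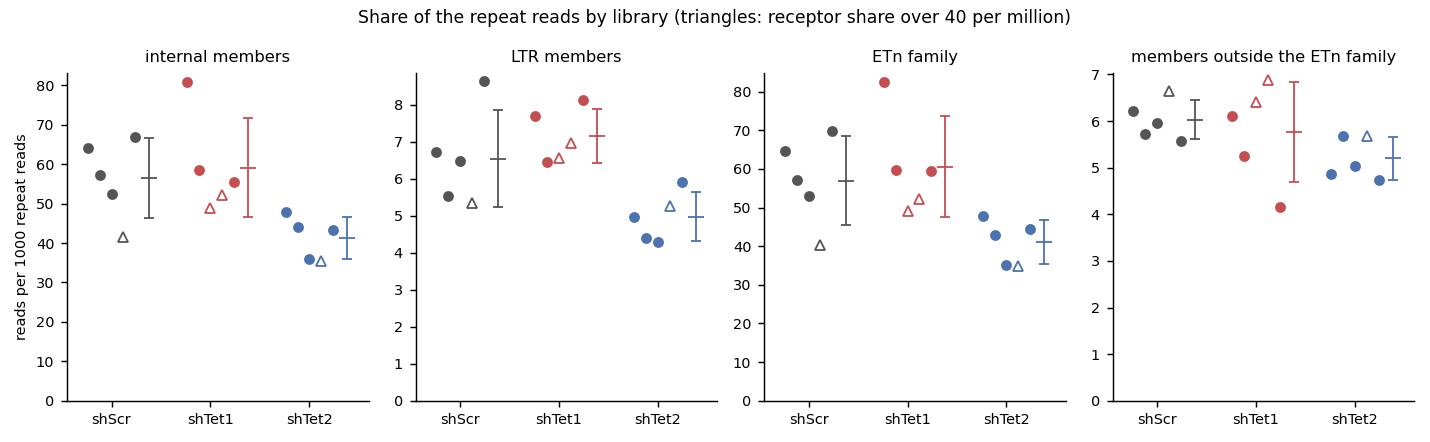
Reads per 1000 repeat reads (vertical axis, from 0) for internal members, LTR members, the ETn family and members outside it, by library, with the mean and SD of 5 libraries and open triangles for the 4 libraries of high receptor share. The shTet2 libraries (35.4 to 47.8 for internal members) lie below all shTet1 libraries (48.8 to 80.8) in all panels but the last, where the groups overlap.

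Single classes were also compared after scaling by repeat reads. On that scale the median difference over all classes was −0.14 in shTet2 against shTet1 and −0.10 in shTet2 against shScr. RLTRETN_Mm was then lower in shTet2 than in shTet1 by a difference of −0.59 (SE 0.16, −0.93 to −0.25; limma adjusted p = 0.321), MMETn-int by −0.58 (SE 0.19, −0.99 to −0.17; limma adjusted p = 0.477), ETnERV-int by −0.57 (SE 0.16; limma adjusted p = 0.321) and ETnERV2-int by −0.43 (SE 0.15; limma adjusted p = 0.533). Groups did not overlap for ETnERV-int, ETnERV2-int and RLTRETN_Mm, beside 1.35% of all classes with such a lower mean. Against shScr, groups of shTet2 did not overlap for IAPEz-int (−0.36) and IAPLTR1_Mm (−0.32), beside 1.77% of all classes. The replicate numbers were taken to pair shTet1 with shTet2 from correlations between libraries in these same data. In the repeat values, 3 of 5 shTet2 libraries were most like the shTet1 library of their own number. The same fit over all libraries, shScr included, was run with the replicate number as a block. It called MMETn-int, ETnERV-int and RLTRETN_Mm lower in shTet2 than in shTet1 (limma adjusted p = 0.0286, 0.0286 and 0.0119), beside 0.337% of all classes called lower. This pair of choices was added after the data were seen, and neither choice alone called a member. With library weights in the fit to the deposited values, the difference of RLTRETN_Mm between shTet2 and shTet1 turned to 0.09. That fit called 13 of 25 members higher in shTet2 than in shTet1, beside 43.2% of all classes.

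Levels of members outside the ETn family moved with the receptor share. Over the 15 libraries, as deviations from group means, the correlation of a member's value with the log2 receptor share was 0.765 to 0.963 for the 20 members outside the ETn family, with a median of 0.918, beside a median of 0.811 over all 1187 classes. For MMETn-int it was 0.00749, for ETnERV-int 0.425, for RLTRETN_Mm 0.50 and for ETnERV2-int 0.524. Over the 11 libraries left without those of high share, it was 0.164 to 0.863 for the 20 members, with a median of 0.630, beside 0.478 over all classes, and −0.182 for MMETn-int. These are descriptions over libraries that share the scaling by gene reads. The members outside the family also varied together, with a median correlation of 0.905 over 190 pairs, whereas MMETn-int, ETnERV-int and ETnERV2-int against those members had a median of 0.492 over 60 pairs. The part of the receptor share in the differences between groups was not tested, but their size without the 4 libraries was measured.

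**Figure D4:**
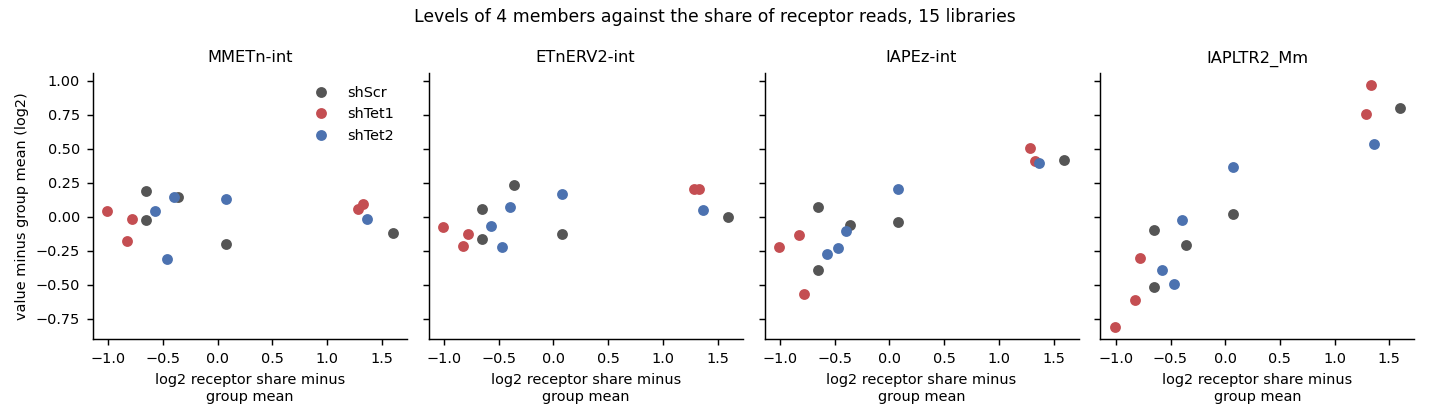
Value of MMETn-int, ETnERV2-int, IAPEz-int and IAPLTR2_Mm minus its group mean (log2, vertical axis) against the log2 receptor share minus its group mean (horizontal axis) in 15 libraries, coloured by group. IAPEz-int (r = 0.887) and IAPLTR2_Mm (r = 0.941) rise along the axis, and MMETn-int (r = 0.00749) does not.

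Without the 4 libraries, the fit still called 0 of 25 members in each comparison. In shTet2 against shTet1 all 20 members outside the ETn family then had a higher mean in shTet2, with differences of 0.09 to 1.07 and a median of 0.64, beside a median of 0.38 over all classes. In the ETn family the difference was −0.30 for MMETn-int, −0.25 for ETnERV-int, −0.08 for ETnERV2-int, −0.30 for RLTRETN_Mm and 0.98 for ETnERV3-int. Against shScr, MMETn-int and ETnERV-int in shTet2 were at −0.36 and −0.40 without them, close to the values with all libraries. In shTet1 against shScr, 24 of 25 members had a lower mean, with a median of −0.45 beside −0.28 over all classes.

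The differences were also taken within replicates 1 and 2 and within replicates 3 to 5. The libraries of high receptor share (shScr replicate 4, shTet1 replicates 3 and 4, shTet2 replicate 4) all lie in replicates 3 to 5. The sets of replicates therefore also differ in that share. The labels name more than 1 method of RNA extraction without tying it to libraries. The part of either in the differences was not tested. In shTet1 against shScr, 24 of 25 members were lower within replicates 1 and 2 (median −0.51, beside −0.47 over all classes) and 2 of 25 within replicates 3 to 5 (median 0.16, beside 0.20). MMERVK10C-int was at −1.14 in the former and 0.05 in the latter, and IAPLTR2_Mm at −0.63 and 0.30. In shTet2 against shScr, 21 members were lower within replicates 1 and 2 and 6 within replicates 3 to 5. The test within each set was added after the data were seen. Within replicates 1 and 2, limma called 14 of 25 members lower in shTet1 than in shScr, 7 internal parts and 7 LTRs, beside 38.9% of all classes called lower. Among them were MMERVK10C-int (limma adjusted p = 0.0122), IAPLTR2_Mm (0.0116), IAPLTR1a_Mm (0.0210), IAPLTR2a (0.0252) and IAPLTR1_Mm (0.0271), while IAPEz-int was at −0.28 (0.0653) and MMETn-int at −0.22 (0.415). In the same replicates it called 0 members in shTet2 against shScr, beside 0% of all classes, and 0 in shTet2 against shTet1, beside 1.52%. Within replicates 3 to 5 it called 0 members in each comparison, beside 0%, 0% and 0.168% of all classes. At an unadjusted p under 0.05, replicates 1 and 2 gave 10 members in shTet2 against shScr and 14 in shTet2 against shTet1, beside 414 and 216 of 1187 classes. Replicates 3 to 5 gave 0 members in each comparison, beside 4, 34 and 20 classes. Whether the sets of replicates differ was not tested.

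MMETn-int, ETnERV-int, ETnERV2-int and RLTRETN_Mm had lower means in shTet2 in both sets of replicates. IAPEz-int, outside the ETn family, did so too, at −0.48 and −0.05 from shScr and −0.20 and −0.06 from shTet1. Within replicates 3 to 5 the intervals of all these classes included 0 in both comparisons. For MMETn-int they were −0.49 to 0.22 from shScr and −0.67 to 0.04 from shTet1. MMETn-int differed from shScr by −0.64 within replicates 1 and 2 and by −0.14 within replicates 3 to 5, ETnERV-int by −0.60 and −0.20, ETnERV2-int by −0.54 and −0.06, and RLTRETN_Mm by −0.62 and −0.05. Relative to the median of all classes in the same replicates (−0.31 and 0.27), MMETn-int lay at −0.33 and −0.41 and ETnERV-int at −0.29 and −0.47. From shTet1 the differences of MMETn-int were −0.42 and −0.31, of ETnERV-int −0.32 and −0.37, and of RLTRETN_Mm −0.41 and −0.33. In 5 of 5 same-numbered pairs, MMETn-int, ETnERV-int, ETnERV2-int and RLTRETN_Mm were lower in shTet2 than in shTet1. ETnERV3-int, IAPLTR3, MYSERV16_I-int and MYSERV6-int were higher in 5 of 5 pairs, as were MERVL-int and L1Md_T outside the members. Such pairs were not counted over all classes, so the 5 of 5 does not set these members apart.

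**Figure D5:**
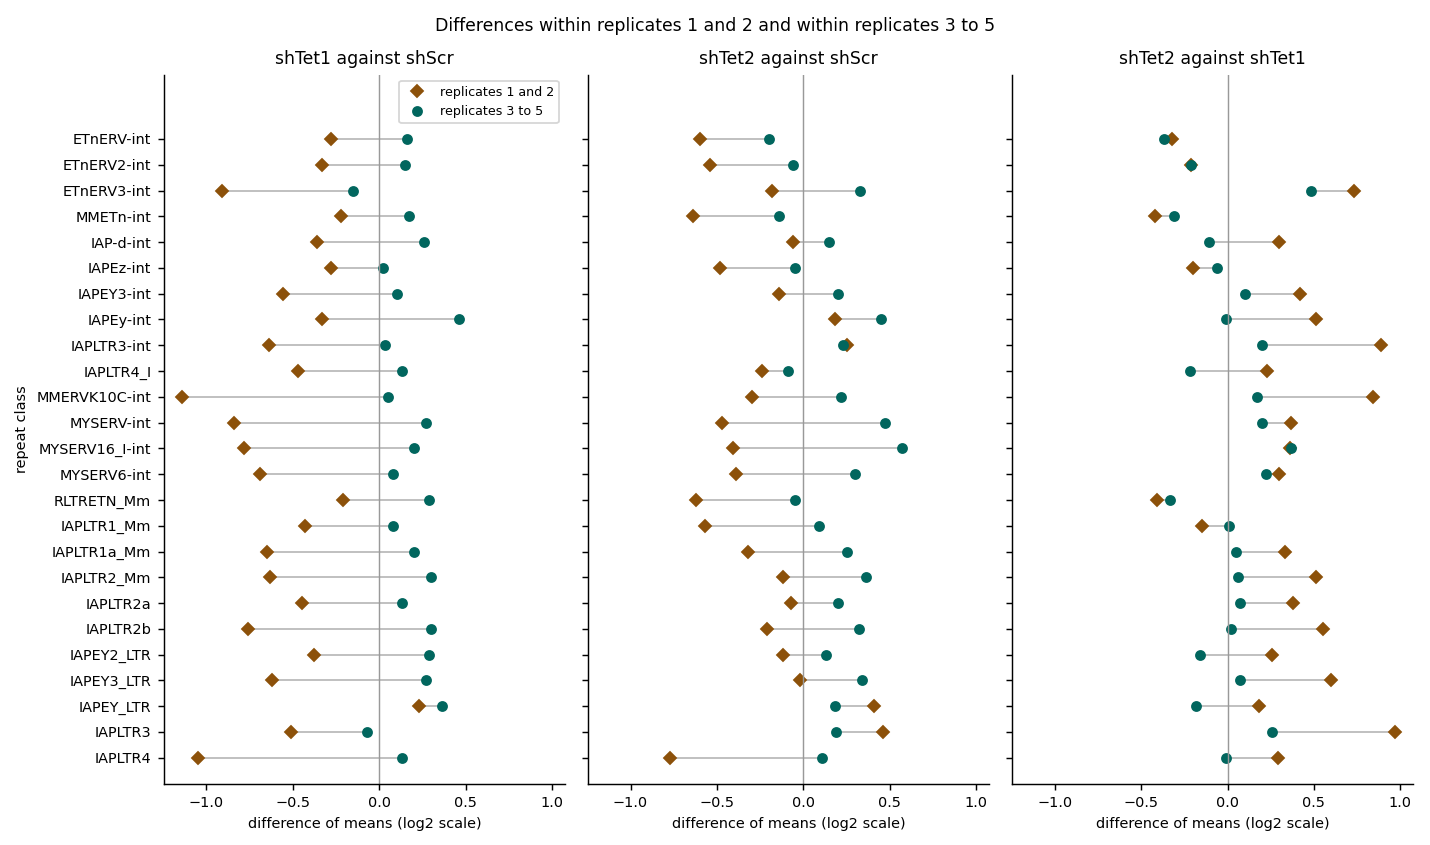
Difference of group means (log2 scale, horizontal axis) of each member within replicates 1 and 2 (diamonds) and within replicates 3 to 5 (circles), one panel per comparison. In shTet1 against shScr 24 of 25 diamonds lie below 0 and 23 of 25 circles above it. In the panels with shTet2, MMETn-int, ETnERV-int, ETnERV2-int, RLTRETN_Mm and IAPEz-int lie below 0 in both sets of replicates.

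Genes known or proposed to take part in silencing class II retroviruses or in heterochromatin were examined next, and not all of them are known to act on these elements. Of 35 such genes, 0 were called in any comparison by limma with Benjamini-Hochberg adjustment, beside 0.0718% of all genes in shTet1 against shScr, 0.390% in shTet2 against shScr and 4.24% in shTet2 against shTet1. Unadjusted p-values under 0.05 were found for 3, 4 and 3 of them, beside 11.8%, 11.6% and 15.7% of all genes. In shTet1 these were Zfp809, a KRAB zinc finger gene whose protein binds retroviral primer binding sites, Rif1, a chromatin and replication timing factor, and Smarcad1, a chromatin remodeller, each with a lower mean. Zfp809 was 10.69 ± 0.14 in shScr and 10.09 ± 0.35 in shTet1 (SD, n = 5), a difference of −0.60 (−0.93 to −0.26; limma adjusted p = 0.133) with groups that did not overlap, beside 1.11% of all genes with such a lower mean. Rif1 differed by −0.55 (−0.95 to −0.15; limma adjusted p = 0.233) and Smarcad1 by −0.36 (−0.68 to −0.04; limma adjusted p = 0.357).

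In shTet2 against shScr the 4 genes were Suv39h2, a histone H3 lysine 9 methyltransferase gene, Cbx5, which encodes the heterochromatin protein HP1 alpha, Smarcad1 and H3f3a, which encodes histone H3.3 and has many near-identical copies in the genome, so that its reads are uncertain. Their differences were −0.31 (−0.54 to −0.08; limma adjusted p = 0.251), −0.41 (−0.81 to −0.01), −0.37 (−0.70 to −0.05) and −0.49 (−0.92 to −0.06), all lower. The shTet2 values of Suv39h2 did not overlap those of shScr, beside 0.949% of all genes with such a lower mean, nor those of shTet1, beside 2.45%. Between shTet2 and shTet1, Suv39h2 differed by −0.37 (−0.60 to −0.14; limma adjusted p = 0.0642), Zfp809 by 0.43 (0.09 to 0.77) and Dnmt3l, a cofactor of de novo DNA methylation, by 0.68 (0.21 to 1.14). With the replicate number as a block, Zfp809, Rif1 and Mphosph8, which encodes a subunit of the HUSH silencing complex, were called in shTet1 against shScr (limma adjusted p = 0.00819, 0.0232 and 0.0293), beside 4.80% of all genes. Zfp809 and Rif1 were lower and Mphosph8 was higher, by 0.38. In the block fit Suv39h2, Dnmt3l and Zfp809 were called between shTet2 and shTet1 (limma adjusted p = 0.0158, 0.0155 and 0.0170), beside 11.2% of all genes. Cbx5 was called in shTet2 against shScr (limma adjusted p = 0.0347), beside 4.31% of all genes, a comparison in which the numbers did not pair all libraries. Whether these genes and the levels of the retroviruses are tied was not tested.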

How the data were processed

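Total RNA of 15 rRNA-depleted libraries had been trimmed with Trim Galore 0.3.3 and aligned to mm9 with TopHat2 2.0.9 by the authors, who counted reads per gene and per RepeatMasker class in Seqmonk, pooling copies. A read with several best positions was kept at 1, so reads of close relatives such as ETnERV-int and MMETn-int can be exchanged. Use of strand in counting is not given in the sources used here. The deposited values are variance-stabilised values on a log2-like scale, made by the authors with DESeq2. Undoing the transformation gave whole reads (100.0% within 0.01), and showed that repeats had been scaled by gene reads.

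Members and lists were chosen with earlier results of these data known. Classes with a read in 5 or more of 15 libraries entered limma 3.58.1 in R 4.3.3 (lmFit, eBayes with trend, group as the only term, two-sided, Benjamini-Hochberg over 1187 classes or 19490 genes, threshold 0.05). Exact two-sided permutation tests of 5 against 5 libraries were added. The fit was tested on simulated reads that held no shift shared by the classes of a library, so its behaviour under such shifts was not tested.

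Named members were the 5 internal and 5 LTR classes with most reads and the lowest unadjusted p per type and comparison. The 4 members listed as bound by TET1 were added. So were IAPLTR1_Mm, IAPLTR2_Mm and IAPEz-int, taken as the classes nearest to the primer pairs. There were 12 in all. The silencing list held 37 genes, of which 35 were found. Replicate numbers were taken to pair shTet1 with shScr (correlation of deviations over genes 0.374 to 0.657) and shTet2 with shTet1 (0.330 to 0.731), not shTet2 with shScr (lowest 0.00789). Log2 of recovered reads had 0.5 added. Alternatives covered the filter, variance trend, scaling, weights, block, receptor share and single libraries.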

Additional observations from a re-analysis of the deposited data

Results flagged for a closer look

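Among 42 groups of 5 libraries examined, 3 had a library far from the others by Dixon's criterion, and chance alone gives about 1 in 20. ETnERV-int in shScr replicate 2 was at 15.22, while the other 4 shScr libraries lay at 14.88 to 14.89. IAPLTR1a_Mm in shScr replicate 4 was at 10.40 against 9.29 to 9.56, and IAPLTR2a in the same library was at 10.38 against 9.30 to 9.54. That library also had a receptor share of 61.5 per 1000000 gene reads, against 12.9 to 21.4 in the other shScr libraries, and the part of this share in the values was not tested.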

How the results depend on the processing

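The limits are those of 5 libraries a group, of classes that share reads, of a scaling by gene reads and of 4 libraries with a high receptor share. Of the values recomputed, 457 that answer a comparison were counted as unchanged and 20 as moved. Medians that turned in sign within their spread between libraries were among the unchanged, so this count does not show that directions held. In shTet1 against shScr the median of internal members was −0.14 with all libraries and 0.14 within replicates 3 to 5 (spread 0.53). That of LTR members was −0.10 and 0.27 (spread 0.63). Of the values for single members, 724 kept their direction and side, 14 gained a call and 126 turned in direction.

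With the replicate number as a block, 0 members were called in each comparison. Silencing genes called with the block were 3 in shTet1 against shScr, 1 in shTet2 against shScr and 3 in shTet2 against shTet1. Between shTet2 and shTet1, 1 was called with no filter, and 0 to 1 with a single library left out, the 1 coming without shTet1 replicate 5. The block together with scaling by repeat reads called 2 internal and 1 LTR member between shTet2 and shTet1, all 3 of them named. Library weights called 1 internal member in shTet1 against shScr (MMERVK10C-int, −0.83), beside 1.85% of all classes called lower, and 8 internal and 5 LTR members between shTet2 and shTet1, all higher and 4 of them named, beside 43.2% of all classes called higher. These weights also moved the median of all classes to 0.43 there. Quantile normalisation called 1 internal member there, MMETn-int (−0.72), beside 0.0842% of all classes called lower. Within replicates 1 and 2, 7 internal and 7 LTR members were called in shTet1 against shScr, 5 of them named, beside 38.9% of all classes called lower. Per 1000 gene reads, the ratios of shTet2 to shTet1 were 0.824 for internal parts and 0.812 for LTRs. The cause of these changes was not tested.

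Directions turned as follows. For shTet1 against shScr, library weights gave −0.41 for IAPEY2_LTR, −0.09 for MMETn-int and −0.13 for RLTRETN_Mm. Centring on the median gave 0.04 for ETnERV-int and 0.01 for ETnERV2-int, quantile normalisation 0.05 for ETnERV2-int and 0.00 for IAPLTR2_Mm, and the receptor share as covariate −0.07 for IAPEY2_LTR. Scaling by repeat reads, with or without the block, gave 0.06 for ETnERV-int, 0.04 for ETnERV2-int and 0.01 for IAPLTR2_Mm. Without the 4 libraries of high receptor share, IAPEY2_LTR was −0.33, MMETn-int −0.07 and RLTRETN_Mm −0.06. Within replicates 1 and 2, IAPEY2_LTR was −0.38, MMETn-int −0.22 and RLTRETN_Mm −0.21. Within replicates 3 to 5, ETnERV-int was 0.16, ETnERV2-int 0.15, IAPEz-int 0.02, IAPLTR1_Mm 0.08, IAPLTR1a_Mm 0.20, IAPLTR2_Mm 0.30, IAPLTR2a 0.13 and MMERVK10C-int 0.05.

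For shTet2 against shScr, IAPEY2_LTR was −0.04 with centring, −0.01 with quantiles, −0.18 with the covariate and −0.11 with repeat reads. IAPLTR1a_Mm was −0.05, −0.03, −0.17 and −0.13 in the same order, and MMERVK10C-int −0.06, −0.05, −0.10 and −0.14, with −0.02 under weights. IAPLTR2a was −0.05 with the covariate and with repeat reads, and IAPLTR2_Mm −0.01 with the covariate. Within replicates 1 and 2, IAPEY2_LTR and IAPLTR2_Mm were −0.12, IAPLTR1a_Mm −0.32, IAPLTR2a −0.07 and MMERVK10C-int −0.30, and within replicates 3 to 5 IAPLTR1_Mm was 0.09. In shTet2 against shTet1, IAPEY2_LTR was −0.11 with centring, −0.12 with quantiles, −0.11 with the covariate and −0.21 with repeat reads, where IAPLTR1a_Mm was −0.06 and IAPLTR2a −0.03. Weights gave 0.00 for IAPEz-int, 0.15 for IAPLTR1_Mm and 0.09 for RLTRETN_Mm. Without the 4 libraries, IAPEY_LTR was 0.17, IAPEz-int 0.09 and IAPLTR1_Mm 0.15. IAPEY_LTR was 0.18 within replicates 1 and 2, and within replicates 3 to 5 IAPEY2_LTR was −0.16 and IAPLTR1_Mm 0.01.

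With single libraries left out, differences of shTet1 from shScr ran from −0.06 to 0.05 for ETnERV-int, −0.09 to 0.02 for ETnERV2-int, −0.25 to 0.31 for IAPEY2_LTR, −0.23 to 0.04 for IAPEz-int, −0.39 to 0.07 for IAPLTR1a_Mm, −0.31 to 0.13 for IAPLTR2_Mm, −0.30 to 0.09 for IAPLTR2a and −0.03 to 0.06 for MMETn-int. Those of shTet2 from shScr ran from −0.14 to 0.32 for IAPEY2_LTR, −0.12 to 0.22 for IAPLTR1a_Mm, −0.02 to 0.29 for IAPLTR2a and −0.09 to 0.11 for MMERVK10C-int. Those of shTet2 from shTet1 ran from −0.19 to 0.12 for IAPEY_LTR, −0.16 to 0.28 for IAPEY2_LTR, −0.26 to 0.01 for IAPEz-int, −0.16 to 0.05 for IAPLTR1_Mm and −0.05 to 0.41 for IAPLTR1a_Mm. No member was called in these fits.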
